A study of Mus musculus with 12 samples.

Results

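The effect of the ligand TGFB2 in cells that also received the ligand BMP4 is described here from 6 of 12 RNA libraries. These are the 3 BMP4-TGFB2 libraries and the 3 BMP4 libraries. Words such as added, raised further and overrides compare these groups and do not give an order of treatment in time. The cells are mouse PYMT cells, a line named for the polyoma middle T antigen that drives mammary tumours in the mouse model of that name, and all of them were grown in matrigel, a gel of basement membrane proteins. BMP4-TGFB2 cells received BMP4 and TGFB2, BMP4 cells received BMP4, TGFB2 cells received TGFB2, and NT cells received neither. Ligands were used at 5 ng/mL over 3 days, and cells were collected 2 days after a change of medium. TGFB2 and NT libraries, also 3 each, are used to say where a level stands relative to cells without BMP4. The labels call the 3 libraries of a group biological replicates and give neither the clone nor what separated the replicates. A p-value here therefore reflects only how far cultures vary within the 4 groups of this experiment, once the replicate number is allowed for.

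BMP4 and TGFB2 belong to the same ligand family. BMP4 binds type I receptors that phosphorylate SMAD1 and SMAD5, and its classic targets are the Id genes, Smad6 and homeobox genes of the Dlx and Msx families. TGFB2 acts through TGFBR2 and its type I receptor on SMAD2 and SMAD3, whose targets include Pmepa1 and matrix genes, and both branches use SMAD4 and induce the inhibitor SMAD7. In mammary epithelium TGFb ligands are known for growth arrest and for loosening epithelial character, and BMP ligands for effects on lineage. The questions are which BMP4-induced genes TGFB2 overrides, and which genes it brings that neither untreated nor BMP4-treated cells expressed.

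The 6 libraries held 28543128 to 39447105 counts. Of 54347 genes, 15319 passed the filter on low counts and were tested. Mammary epithelial markers were high throughout, with the summed CPM (counts scaled to a common library total) of Epcam, Cdh1, Krt8, Krt18, Krt19 and Krt7 at 4640.1 to 5706 in BMP4-TGFB2 and 4331 to 5569 in BMP4 libraries. Of 9 leukocyte markers 6 stayed under 1 CPM in every one of the 6 libraries. Their sums were 9.91 to 12 CPM in BMP4-TGFB2 and 7.43 to 10 CPM in BMP4 libraries, and Cd68 and Csf1r held most of it. Csf1r was the 1 leukocyte marker called higher in BMP4-TGFB2 libraries (adjusted p = 0.016). Its call did not hold without BMP4-TGFB2 replicate 1 or 2 or BMP4 replicate 1 or 2 (adjusted p 0.066 to 0.0795). Endothelial markers summed to 2.51 to 4.06 CPM in BMP4-TGFB2 and 1.72 to 3.35 CPM in BMP4 libraries, and of 8 adipocyte markers 4 (Adipoq, Plin1, Lep and Cidec) stayed under 1 CPM. The other adipocyte markers, Fabp4, Pparg, Cebpa and Lipe, summed to 23.7 to 31.3 CPM in BMP4-TGFB2 and 49 to 70.9 CPM in BMP4 libraries, and Cebpa and Lipe were called lower, Lipe not without BMP4-TGFB2 replicate 3, BMP4 replicate 1 or BMP4 replicate 2 (adjusted p 0.0519 to 0.0983). Fibroblast markers summed to 14.9 to 29.5 CPM in BMP4-TGFB2 and 7.43 to 21.5 CPM in BMP4 libraries. The milk genes Csn2 and Wap were at or near 0. The first principal component of the 6 libraries, with 45.4% of the variance, separated BMP4-TGFB2 (-60.8 to -41.2) from BMP4 (33.3 to 62.3). Along the second (23.5%), replicate 1 lay at one end and replicate 3 at the other in both groups.

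Adding TGFB2 changed 3476 genes, 22.7% of those tested, at an adjusted p under 0.05 (edgeR quasi-likelihood test with the replicate number as a block, Benjamini-Hochberg adjustment, as for every adjusted p here). A total of 1634 genes were higher in BMP4-TGFB2 than in BMP4 libraries (10.7%) and 1842 were lower (12%). Past a log2 fold change of 1 there were 546 higher (3.56%) and 883 lower (5.76%). The libraries are of bulk RNA, so fewer cells of a type and less RNA per cell cannot be told apart. Leaving out a single library gave between 980 and 1206 higher genes and between 1041 and 1470 lower genes. The higher count moved by over 1.5 times without BMP4-TGFB2 replicate 2 (980), BMP4 replicate 1 (990) or BMP4 replicate 2 (1034), and the lower count without BMP4-TGFB2 replicate 1 (1150) or BMP4 replicate 1 (1041).

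BMP4 alone raised 576 genes by at least 1 log2 unit over NT, 3.76% of those tested. Added TGFB2 lowered 74 of them, or 12.8%, which lies near the 12% of all tested genes that were lower in BMP4-TGFB2. It raised 176 further (30.6%, against 10.7% of all tested genes) and left 326 without a call (56.6%). The comparisons of BMP4-TGFB2 with BMP4 and of BMP4 with NT share the BMP4 libraries, so their values for a gene are not independent. Set against NT, 52 of the 74 lowered genes were not called with both ligands present, 14 stayed above NT and 8 were below it (20.4% and 21% of all tested genes). Their median log2 fold change was -1.84 for BMP4-TGFB2 over BMP4, beside 1.87 for BMP4 over NT and 0.29 for BMP4-TGFB2 over NT. The count of 74 was between 32 and 111 when a single library was left out, with the smallest value without BMP4 replicate 1. It also moved by over 1.5 times without BMP4-TGFB2 replicate 1 (45), BMP4-TGFB2 replicate 3 (44) or NT replicate 2 (48), and NT replicate 3 gave the 111 genes.

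Among the lowered genes, Krt15 had the deepest fall. Krt15 (ENSMUSG00000054146.8, chromosome 11, 100131758 to 100135928; GENCODE M21, GRCm38), a keratin of basal and stem-like epithelial cells, had 0.0552, 0.211 and 0.164 CPM in BMP4-TGFB2 libraries, against 12.3, 26.5 and 13.3 CPM in BMP4 libraries. Every BMP4-TGFB2 library lay below every BMP4 library, as was so for 14.4% of all tested genes, and the log2 fold change was -6.91 ± 0.50 (adjusted p = 3.6e-05). NT libraries averaged 0.715 CPM, so with both ligands Krt15 was below the untreated level (-2.34 ± 0.53, adjusted p = 0.00564). Next came Bpifb3, of the BPI-fold family, with 0.0828, 0 and 0 CPM in BMP4-TGFB2 libraries, against 3.55, 3.32 and 1.25 CPM in BMP4 libraries. Its 3 counts over the BMP4-TGFB2 libraries against 283 give a ratio of 0.0114, with an exact Clopper-Pearson 95% interval of 0.00234 to 0.0336 that covers counting error only. The anion exchanger Slc26a7 (-5.70 ± 0.83), the gasdermin Gsdma (-5.01 ± 0.86), the endoribonuclease Endou (-4.59 ± 0.75) and the organic anion exporter Abcc3 (-4.33 ± 0.45, adjusted p = 0.000156) also fell to about or below the NT level. Abcc3 had 1.05, 1.55 and 0.949 CPM in BMP4-TGFB2 libraries and 34.3, 24.1 and 14.3 CPM in BMP4 libraries. Aspg fell by more than 4 log2 units too, a call that did not hold without BMP4 replicate 1 (adjusted p 0.073).

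Of 22 measured genes on the BMP target list, 17 were called higher by BMP4 over NT, against 8.6% of all tested genes. Added TGFB2 lowered 7 and raised 4 of the 22, against 12% and 10.7% of all tested genes, with a median log2 fold change of -0.49 against 0.0053. The lower count was 4 without BMP4-TGFB2 replicate 1 or BMP4 replicate 1 or 2, and the higher count 1 without BMP4-TGFB2 replicate 2 or BMP4 replicate 2, and 2 without BMP4-TGFB2 replicate 1 or 3 or BMP4 replicate 3. Among its BMP4-induced members 6 fell. Hey1, a transcriptional repressor downstream of BMP and Notch signals, had 16.3, 18.8 and 9.29 CPM in BMP4-TGFB2 libraries, against 124, 79.6 and 24.9 CPM in BMP4 libraries (-2.20 ± 0.37, adjusted p = 0.00228). With 14.3 CPM in NT cells, it did not pass the test against NT with both ligands present (0.11 ± 0.36, adjusted p = 0.844). The helix-loop-helix factor Atoh8 had 15.6, 21.6 and 12.7 CPM in BMP4-TGFB2 libraries and 65.5, 68.1 and 60.6 CPM in BMP4 libraries, a log2 fold change of -1.99 ± 0.30 (adjusted p = 0.00134). The homeobox gene Dlx1 averaged 0.853 CPM with both ligands and 4.18 CPM with BMP4 (-2.46 ± 0.46, adjusted p = 0.00406). Dlx2 (-2.35 ± 0.65) and Dlx5 (-1.90 ± 0.45) moved alike, but Dlx2 lost its call without BMP4-TGFB2 replicate 1, BMP4-TGFB2 replicate 2, BMP4 replicate 1 or BMP4 replicate 2 (adjusted p 0.0674 to 0.15) and Dlx5 without BMP4-TGFB2 replicate 1, BMP4-TGFB2 replicate 3, BMP4 replicate 1 or BMP4 replicate 2 (adjusted p 0.0514 to 0.0737). Smad9, which encodes the third BMP receptor SMAD, had 1.93, 3.2 and 1.96 CPM in BMP4-TGFB2 libraries and 6.87, 7.05 and 6.18 CPM in BMP4 libraries (-1.50 ± 0.47, adjusted p = 0.0423), and its call did not hold without BMP4-TGFB2 replicate 1, BMP4-TGFB2 replicate 3, BMP4 replicate 1, BMP4 replicate 2 or BMP4 replicate 3 (adjusted p 0.081 to 0.148).

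Several of the most used readouts of BMP signalling did not pass the test when TGFB2 was added. Id1, an inhibitor of helix-loop-helix factors, had 405, 369 and 329 CPM in BMP4-TGFB2 libraries and 495, 375 and 405 CPM in BMP4 libraries (-0.21 ± 0.15, adjusted p = 0.37), and it stood 0.91 log2 units above NT with both ligands. Smad6, an inhibitor that BMP signals induce, had 55.6, 69.8 and 48.6 CPM in BMP4-TGFB2 libraries and 94.2, 69.1 and 60.7 CPM in BMP4 libraries (-0.35 ± 0.23, adjusted p = 0.315), against 10.7 CPM in NT cells. Groups overlapped for both genes, though Id1 was lower in BMP4-TGFB2 in each same-numbered pair of libraries and Smad6 in 2 of 3. Id3 had 247, 297 and 252 CPM in BMP4-TGFB2 libraries, against 448, 412 and 405 CPM in BMP4 libraries; all 3 BMP4-TGFB2 libraries were lower, but the difference of -0.68 ± 0.23 missed the threshold (adjusted p = 0.0543). Id2 fell (-0.57 ± 0.11, adjusted p = 0.00402), with 316, 290.4 and 228 CPM in BMP4-TGFB2 libraries and 489, 390.1 and 359.7 CPM in BMP4 libraries, and was not a gene that passed the fold required of BMP4-induced genes. Among the BMP4-induced genes without a call, those with the largest rise over NT also included Rarres1 (-1.76 ± 0.63, adjusted p = 0.0724), Orm2 (-0.87 ± 0.49, adjusted p = 0.245), Sprr2a2 (-1.02 ± 0.57, adjusted p = 0.233) and Dlx3 (-1.95 ± 0.75, adjusted p = 0.0912). A missed threshold in these genes of low level does not show that TGFB2 leaves them unchanged.

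Wnt ligands and modulators were the second group on a list with several overridden members. Wnt11 (ENSMUSG00000015957.12, chromosome 7, 98835112 to 98855195) had 4.61, 7.03 and 6.84 CPM in BMP4-TGFB2 libraries, against 13.3, 10.9 and 19.1 CPM in BMP4 libraries, a log2 fold change of -1.21 ± 0.28 (adjusted p = 0.0123). It still stood 4.51 log2 units above NT, where it averaged 0.29 CPM. Wnt4, a ligand of mammary side branching, averaged 66.7 CPM with both ligands and 292 CPM with BMP4 alone (-2.22 ± 0.55, adjusted p = 0.016). Notum, a secreted enzyme that inactivates Wnt proteins, averaged 198 CPM in BMP4-TGFB2 and 741 CPM in BMP4 libraries (-2.03 ± 0.35, adjusted p = 0.00244). Of these calls, those of Wnt11 and Wnt4 rest on single libraries: Wnt11 did not pass without BMP4-TGFB2 replicate 1, BMP4-TGFB2 replicate 3 or BMP4 replicate 1 (adjusted p 0.054 to 0.0816), nor did Wnt4 without BMP4-TGFB2 replicate 1, BMP4-TGFB2 replicate 3 or BMP4 replicate 1 (adjusted p 0.0634 to 0.0869). The Wnt list as a whole, with 21 measured members, had 5 higher and 8 lower, beside 10.7% and 12% of all tested genes. Its lower count was 3 without BMP4-TGFB2 replicate 1 or BMP4 replicate 1, and 4 without BMP4-TGFB2 replicate 3. Wnt9a (2.18 ± 0.19, adjusted p = 5.22e-05) and the R-spondin gene Rspo3 (2.65 ± 0.29, adjusted p = 0.000212) rose, and the secreted inhibitors Wif1 (-4.61 ± 0.56, adjusted p = 0.000399) and Sfrp1 (-2.18 ± 0.27, adjusted p = 0.000479) fell.

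The Wnt11 promoter is shown because it holds 2 matches of GGCGCC, a letter pattern bound by SMAD1 and SMAD5, in a gene that BMP4 raised and TGFB2 lowered. It spans 250 bases before to 50 after the start in RefSeq (GRCm38.p6, chr7:98834862-98835161, plus strand), 5′ to 3′, with the matches in capitals.
Wnt11: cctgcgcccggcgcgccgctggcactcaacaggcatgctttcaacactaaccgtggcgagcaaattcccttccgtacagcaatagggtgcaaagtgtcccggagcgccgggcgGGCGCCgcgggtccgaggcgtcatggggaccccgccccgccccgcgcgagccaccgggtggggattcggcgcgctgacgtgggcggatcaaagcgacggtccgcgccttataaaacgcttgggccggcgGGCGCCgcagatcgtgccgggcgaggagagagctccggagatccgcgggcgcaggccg
On either strand GGCGCC was in 14 of 52 promoters of lowered BMP4-induced genes (26.9%) and in 21% of the 11043 promoters matched to tested genes. The promoter table matched under 80% of the tested genes and of these sets, so the shares describe the matched promoters and are void as a check of the whole sets. A match describes letters and is not a binding site.

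Genes of collagen VI were also lowered. Col6a1 (ENSMUSG00000001119.7, chromosome 10, 76708792 to 76726168) and Col6a2 encode chains of the same microfibril. Col6a1 had 25.9, 72.4 and 29.7 CPM in BMP4-TGFB2 libraries, against 326, 303 and 124 CPM in BMP4 libraries, and 7.88 CPM on average in NT. Its groups did not overlap, the log2 fold change was -2.64 ± 0.47 (adjusted p = 0.00305), and the level with both ligands stayed above NT by 2.27. Col6a2 had 7.45, 24.6 and 8.83 CPM in BMP4-TGFB2 libraries and 105, 99.7 and 43.9 CPM in BMP4 libraries (-2.74 ± 0.57, adjusted p = 0.00702). The third chain, Col6a3, had 0.414, 0.633 and 2.39 CPM in BMP4-TGFB2 libraries and 0.463, 0.221 and 1.35 CPM in BMP4 libraries (0.77 ± 0.57, adjusted p = 0.378). Cyp26b1, which degrades retinoic acid, had 3.37, 4.68 and 1.57 CPM in BMP4-TGFB2 libraries, against 34.9, 27.4 and 24.8 CPM in BMP4 libraries (-3.14 ± 0.54, adjusted p = 0.00257), against 1.43 CPM in NT (BMP4-TGFB2 over NT 1.27 ± 0.56, adjusted p = 0.0983). Transcripts of Bmp4 itself had 4.64, 5.84 and 3.6 CPM in BMP4-TGFB2 libraries, against 32.7, 24.2 and 14.9 CPM in BMP4 libraries (-2.30 ± 0.34, adjusted p = 0.0012), against 6.09 CPM in NT. Of the abundant lowered genes, chosen after their values were seen, the lysosomal protease gene Ctsd averaged 4646 CPM in BMP4-TGFB2 and 7982 CPM in BMP4 libraries (-0.73 ± 0.16 (adjusted p = 0.01); it did not pass without BMP4-TGFB2 replicate 1, adjusted p 0.0522), and the kinase gene Sgk1 averaged 229 CPM in BMP4-TGFB2 and 479 CPM in BMP4 libraries (-1.03 ± 0.18, adjusted p = 0.00247). Dlk2 fell as well (-3.20 ± 0.31), but it shares exons with Abcc10, whose level was 80.6% of that of Dlk2, and the reads carry no strand.

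**Figure D1:**
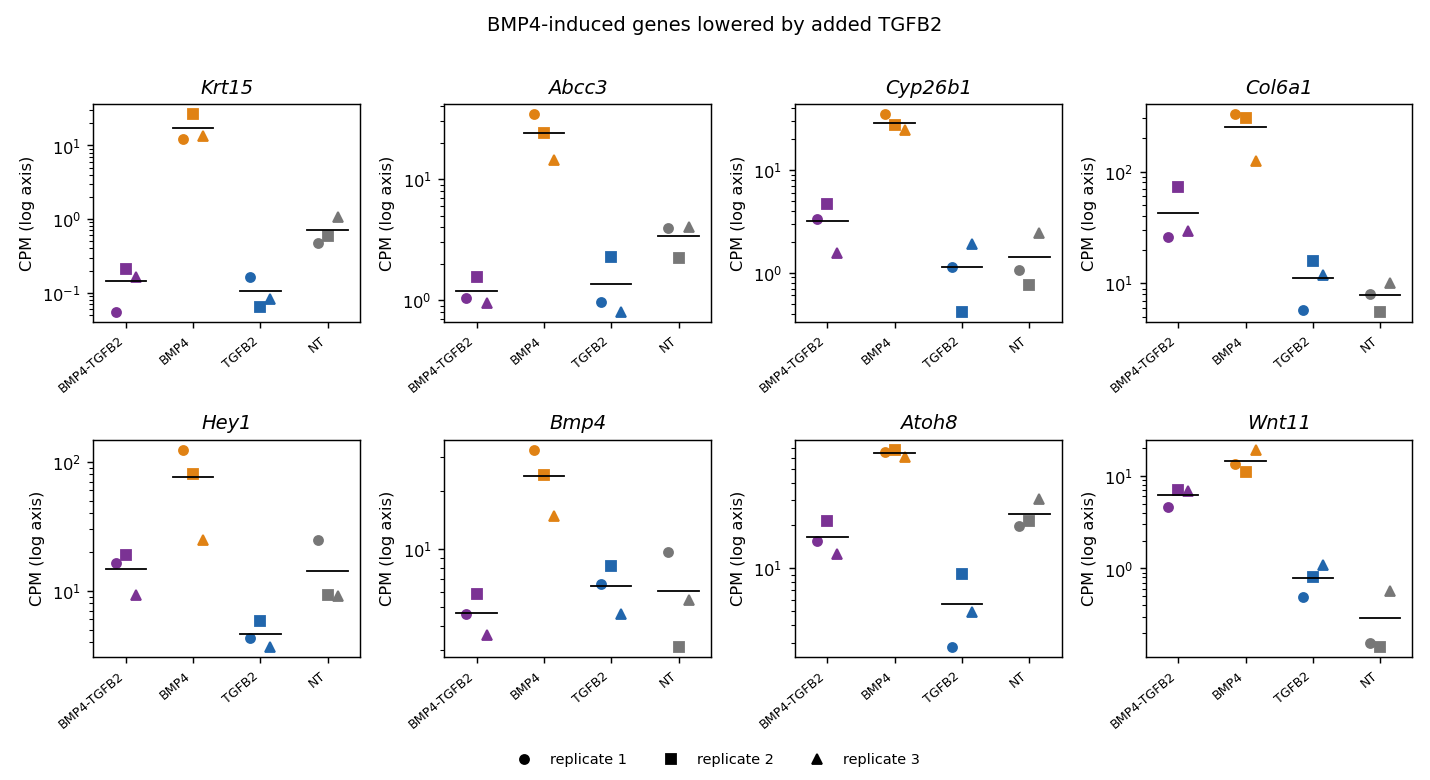
CPM on a log axis in each library for 8 BMP4-induced genes that added TGFB2 lowered; points are libraries, point shapes are replicate numbers and bars are means of 3 libraries. In each panel the 3 BMP4-TGFB2 points lie below the 3 BMP4 points; Krt15 with both ligands is below NT, and Col6a1 and Wnt11 stay above it.

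More BMP4-induced genes rose further than fell when TGFB2 was added: 176 against 74, beside 10.7% and 12% of all tested genes. TGFB2 alone also raised all 176 over NT, against 18.7% of all tested genes, in a comparison that shares the NT libraries with their choice. Their median log2 fold change was 3.00 for TGFB2 over NT and 3.24 for BMP4-TGFB2 over NT. The adhesion receptor gene Adgra1 had 112, 140.1 and 144 CPM in BMP4-TGFB2 libraries, against 1.7, 1.36 and 10.3 CPM in BMP4 libraries (5.19 ± 0.51, adjusted p = 0.000113), and the olfactomedin Olfm2 rose by 3.95 ± 0.38. Jag1, a Notch ligand, had 318, 275 and 474 CPM in BMP4-TGFB2 libraries, against 36.8, 26.5 and 54.9 CPM in BMP4 libraries (3.21 ± 0.20, adjusted p = 1.63e-05). The integrin subunit Itgb3 had 23.2, 38.9 and 62.9 CPM in BMP4-TGFB2 libraries and 2.57, 2.72 and 6.02 CPM in BMP4 libraries (3.46 ± 0.27, adjusted p = 3.93e-05), and the LDL receptor relative Lrp4 rose by 3.58 ± 0.25. Stab1 (3.80 ± 0.37) and Ctsw (3.77 ± 0.55) also rose, but share exons with Nt5dc2, at 101% of the level of Stab1, and with Fibp, at 380.05% of the level of Ctsw.

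The inhibitors that both branches feed rose by less. Smad7 had 199.6, 218 and 203 CPM in BMP4-TGFB2 libraries and 139, 127 and 148 CPM in BMP4 libraries (0.59 ± 0.11, adjusted p = 0.00368) and Pmepa1, which holds receptor SMADs, had 703, 797 and 729 CPM in BMP4-TGFB2 libraries and 481, 427 and 399 CPM in BMP4 libraries (0.77 ± 0.12, adjusted p = 0.00146). The SMAD co-repressor Skil rose by 0.53 ± 0.11 (adjusted p = 0.00858) and the pseudoreceptor Bambi by 1.36 ± 0.31 (adjusted p = 0.0117), which did not pass without BMP4-TGFB2 replicate 2, BMP4 replicate 2 or BMP4 replicate 3 (adjusted p 0.0518 to 0.0606). BMP4 alone had raised Smad7 by 1.58 and Pmepa1 by 1.46 over NT. For both, the effect of TGFB2 was smaller in the presence of BMP4 than without it, with interaction terms of -1.05 ± 0.15 (adjusted p = 0.012) and -1.47 ± 0.17 (adjusted p = 0.00565).

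Genes that TGFB2 brought in anew were few and low. The rule asked for a rise of at least 1 log2 unit, a mean under 1 CPM in BMP4 and in NT libraries, and at least 1 CPM in each BMP4-TGFB2 library. It took 94 genes with a median mean level of 2.26 CPM in BMP4-TGFB2 and 0.505 CPM in BMP4 libraries, 14 of them at 5 CPM or more. The count was 61 without BMP4 replicate 1. TGFB2 alone raised 88 of the 94 over NT, against 18.7% of all tested genes, in a comparison that shares the NT libraries with the rule. Gimap8 (ENSMUSG00000064262.7, chromosome 6, 48647234 to 48660875), a GTPase gene known from lymphocytes, had 3.34, 2.64 and 3.44 CPM in BMP4-TGFB2 and 0, 0 and 0.0627 CPM in BMP4 libraries. That is 301 counts against 2, a ratio of 162 with an exact Clopper-Pearson 95% counting interval of 44.4 to 1342. Cyp21a1, a steroid hydroxylase, had 145 counts against 2 (ratio 77.9, interval 21.2 to 649.6). Psg19, a pregnancy-specific glycoprotein, had 153 against 3 (ratio 54.8, interval 18.4 to 269). Psg22, with 2.21, 1.16 and 7.2 CPM in BMP4-TGFB2 libraries and 0.0515, 0.0633 and 0.0314 CPM in BMP4 libraries, the carboxylesterase Ces1g (5.68 ± 0.51, adjusted p = 6.79e-05) and the protease inhibitor gene Wfdc8 (5.11 ± 0.72, adjusted p = 0.00183) were in the same range. Psg19, Psg22 and Ces1g lie in families of close copies between which reads could be split.

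C1qtnf3, a secreted relative of complement C1q, had 1.21, 2.6 and 4.16 CPM in BMP4-TGFB2 libraries, against 0.0772, 0.0316 and 0.0941 CPM in BMP4 libraries (5.06 ± 0.70, adjusted p = 0.000785). Cd40, a receptor of the TNF family, had 2.4, 2.36 and 10.3 CPM in BMP4-TGFB2 libraries, against 0.232, 0.0316 and 0.125 CPM in BMP4 libraries (4.98 ± 0.71, adjusted p = 0.00093). Among the new genes with higher levels, chosen after their values were seen, were the cadherin Cdh10 (mean 13.6 CPM in BMP4-TGFB2 against 0.661 CPM in BMP4 libraries), the secreted protein Srpx2 (9.85 CPM in BMP4-TGFB2, 0.507 CPM in BMP4), the transcription factor Nfatc4 (9.71 CPM in BMP4-TGFB2, 0.839 CPM in BMP4) and the receptor kinase Ephb2 (6.19 CPM in BMP4-TGFB2, 0.321 CPM in BMP4). Nog, which encodes the BMP antagonist noggin, had 1.71, 1.3 and 1.73 CPM in BMP4-TGFB2 libraries, against 0.103, 0.316 and 0.721 CPM in BMP4 libraries (2.33 ± 0.74, adjusted p = 0.0462). BMP4-TGFB2 libraries were all higher, but the call did not hold without BMP4-TGFB2 replicate 1, BMP4-TGFB2 replicate 2, BMP4-TGFB2 replicate 3, BMP4 replicate 1 or BMP4 replicate 2 (adjusted p 0.0585 to 0.198). The matrix protease Mmp12 (2.44 ± 0.54 (adjusted p = 0.00939); not called without BMP4 replicate 1, adjusted p 0.0559), the collagen Col27a1 (2.65 ± 0.41, adjusted p = 0.00161) and the fibrillin Fbn1 (1.79 ± 0.32, adjusted p = 0.00304) were the other new genes on a list that share no exons with a neighbour above 10% of their level.

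The C1qtnf3 promoter is shown as that of a new gene with 2 matches of CAGAC, the short pattern bound by SMAD3 and SMAD4 (RefSeq, GRCm38.p6, chr15:10952082-10952381, plus strand, 5′ to 3′, matches on either strand in capitals).
C1qtnf3: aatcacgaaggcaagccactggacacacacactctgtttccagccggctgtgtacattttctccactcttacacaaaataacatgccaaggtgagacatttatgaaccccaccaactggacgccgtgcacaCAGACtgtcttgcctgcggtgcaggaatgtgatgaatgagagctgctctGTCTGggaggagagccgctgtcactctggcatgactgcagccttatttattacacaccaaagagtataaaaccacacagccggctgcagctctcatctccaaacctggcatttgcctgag
CAGAC was in 40 of the 62 matched promoters of new genes (64.5%), in 55.6% of those of genes higher by at least 1 log2 unit and in 47.6% of all matched promoters. TGANTCA, the AP-1 pattern, was in 14.5%, 11.2% and 5.58%. Here too the matched share of each set was under 80%, which voids the shares as a check of the sets.

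**Figure D2:**
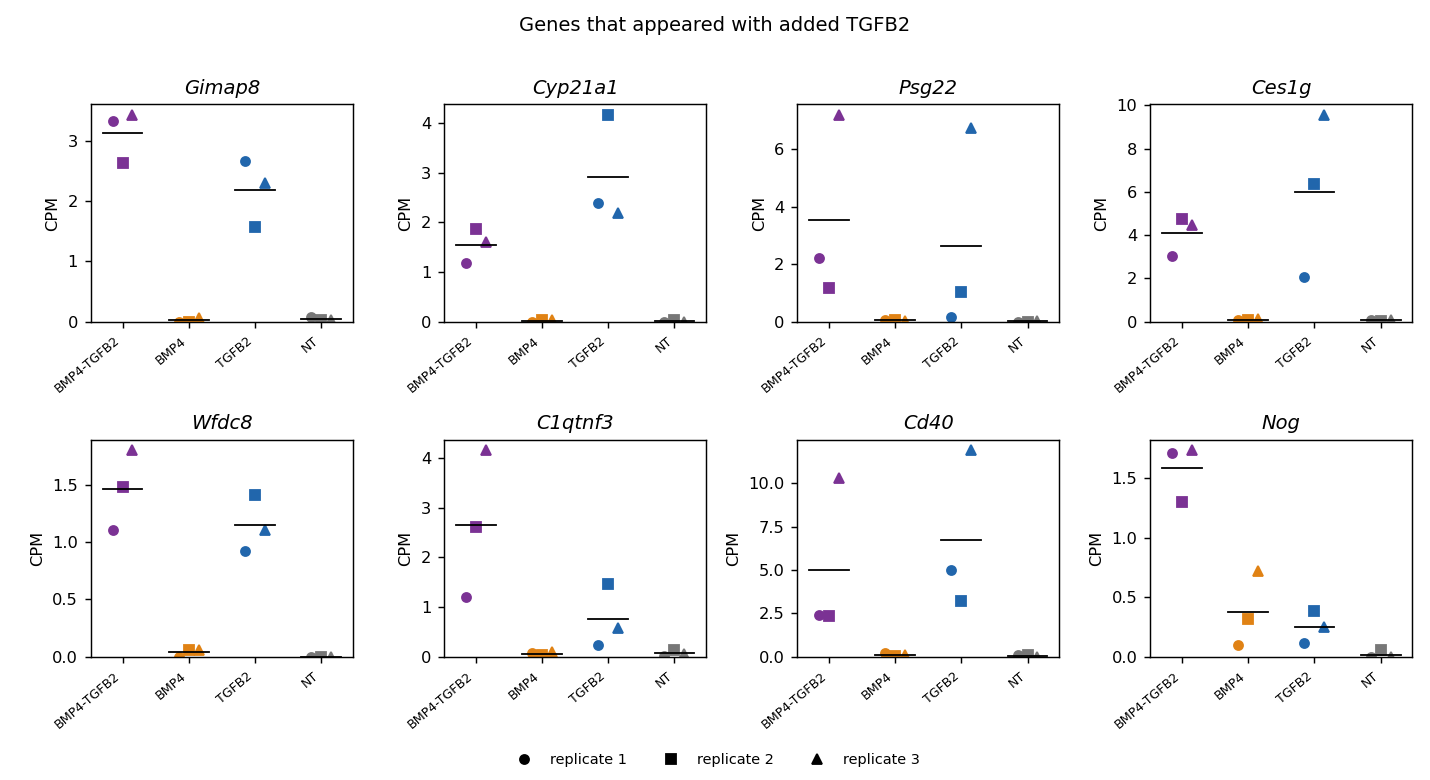
CPM on linear axes in each library for 8 genes that appeared with added TGFB2; points are libraries, shapes are replicate numbers and bars are means of 3 libraries. All 3 BMP4-TGFB2 points lie above all 3 BMP4 points in each panel, and BMP4 points stay under 1 CPM. The rule that chose the genes largely sets this. It asked for a BMP4 mean under 1 CPM and at least 1 CPM in each BMP4-TGFB2 library.

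BMP4 alone lowered 322 genes by at least 1 log2 unit under NT, 2.1% of those tested. Added TGFB2 raised 9 of them (2.8%, against 10.7% of all tested genes) and lowered 185 further (57.5%, against 12%). Creb3l1, a transcription factor anchored in the endoplasmic reticulum, had 14.5, 16.6 and 13.2 CPM in BMP4-TGFB2 libraries, against 2.34, 1.27 and 2.16 CPM in BMP4 libraries (2.92 ± 0.43, adjusted p = 0.00106), beside 14.7 CPM in NT. The peroxisomal oxidase Acox2 had 35.9, 33.7 and 36.2 CPM in BMP4-TGFB2 libraries and 20.1, 15.4 and 14 CPM in BMP4 libraries (1.12 ± 0.14, adjusted p = 0.000437), and Tmem229b rose by 1.02 ± 0.16 (adjusted p = 0.00182). Gne, which starts sialic acid synthesis, rose by 0.64 ± 0.15 (adjusted p = 0.0114) with BMP4 present, but was lower in TGFB2 than in NT libraries (-0.83 ± 0.15, adjusted p = 0.0016). Its call did not hold without BMP4-TGFB2 replicate 3 or BMP4 replicate 2 (adjusted p 0.0522 to 0.0606). The count of 9 fell to 5 without BMP4-TGFB2 replicate 3 or NT replicate 2, and was 14 without BMP4 replicate 3.

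Most genes called with BMP4 present moved in the same direction when TGFB2 was given without BMP4. This can be read from separate libraries, since BMP4-TGFB2 against BMP4 and TGFB2 against NT share none. The calls still come from a joint fit of all 12 libraries, which share the replicate block and an estimate of spread per gene. Both sets of calls are therefore not independent. Of the 1634 genes higher with BMP4 present, 1357 were higher without it, which is 83% of these and 47.4% of the 2861 genes higher in TGFB2 than NT (18.7% of tested genes). Of the 1842 lower genes 1425 were lower without BMP4, 77.4% of these and 48.5% of the 2938 lower in TGFB2 (19.2%). Across the 15319 genes, which are not independent replicates, Pearson's r between the log2 fold changes was 0.67. Genes that TGFB2 alone raised by at least 1 log2 unit (1290 genes, 8.42% of those tested) had a median of 0.94 with BMP4 present against the 1.91 by which they were chosen, and those it lowered (1074, 7.01%) a median of -1.35 against -1.73. The difference itself was called for 280 genes (1.83%), 90 with a positive (0.588%) and 190 with a negative term (1.24%). That count ranged from 61 to 447 when a single library was left out. It was 79 without BMP4-TGFB2 replicate 1, 141 without BMP4-TGFB2 replicate 2, 61 without BMP4-TGFB2 replicate 3, 134, 112 and 116 without BMP4 replicate 1, 2 or 3, 103, 69 and 121 without TGFB2 replicate 1, 2 or 3, and 447 and 127 without NT replicate 1 or 2. Between BMP4-TGFB2 and TGFB2 libraries only 6 genes were called (0.0392%).

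A few genes went in opposite directions: 13 were lower with BMP4 present and higher without it, and 5 the reverse. Ccn5, a secreted growth regulator, had a log2 fold change of -1.89 ± 0.49 (adjusted p = 0.0207) with BMP4 present and of 2.76 ± 0.53 (adjusted p = 0.00269) without it. BMP4-TGFB2 libraries averaged 7.12 CPM, BMP4 libraries 24.8 CPM, TGFB2 libraries 11.3 CPM and NT libraries 1.51 CPM. Wnt11 behaved alike (1.50 ± 0.38, adjusted p = 0.0111 without BMP4), as did Col14a1 (2.15 without BMP4 against -2.25 with it) and the growth factor receptor gene Fgfr2 (1.50 against -0.98), though Fgfr2 shares exons with the far more abundant Ctbp2. Col14a1 averaged under 1 CPM in every group, with 0.169 CPM in BMP4-TGFB2, 0.787 CPM in BMP4, 0.621 CPM in TGFB2 and 0.148 CPM in NT libraries. The calls did not hold for Fgfr2 without BMP4-TGFB2 replicate 1, BMP4-TGFB2 replicate 3 or BMP4 replicate 1 (adjusted p 0.0959 to 0.123), for Ccn5 without BMP4-TGFB2 replicate 1, BMP4-TGFB2 replicate 3 or BMP4 replicate 1 (adjusted p 0.0808 to 0.107) and for Col14a1 without BMP4-TGFB2 replicate 1, BMP4-TGFB2 replicate 2, BMP4-TGFB2 replicate 3, BMP4 replicate 1 or BMP4 replicate 2 (adjusted p 0.0504 to 0.0855).

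**Figure D3:**
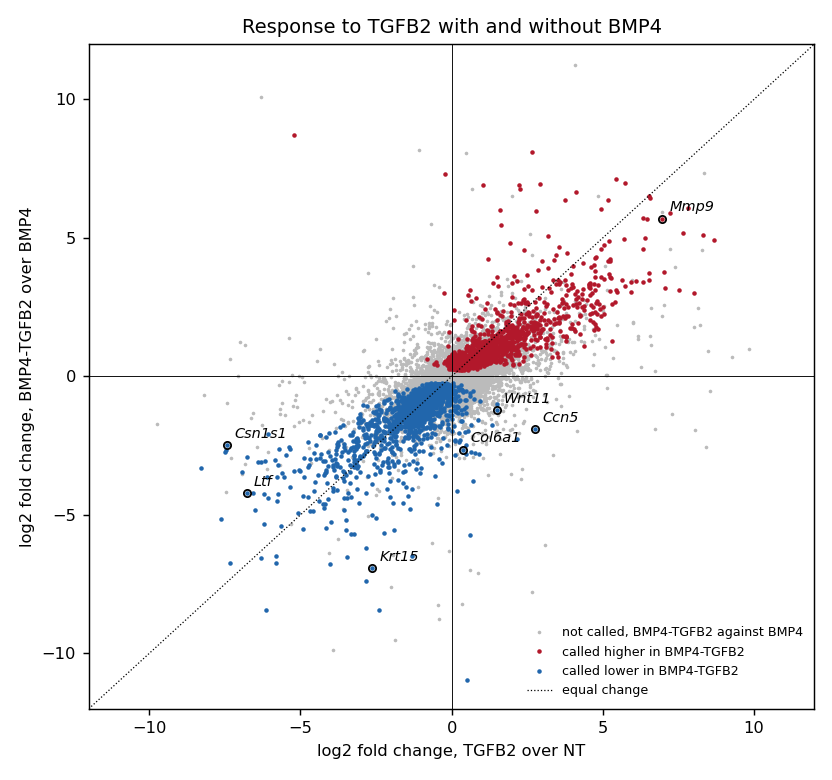
Log2 fold change of each of the 15319 tested genes for BMP4-TGFB2 over BMP4 (vertical) and TGFB2 over NT (horizontal), 2 comparisons with no library in common; colours mark calls in the vertical comparison and the dotted line equal change. Most called genes lie in the quadrants of equal sign, while Ccn5, Wnt11 and Col6a1 lie below 0 on the vertical and above 0 on the horizontal axis. Unlike Ccn5 and Wnt11, Col6a1 was not called higher in TGFB2 than in NT libraries.

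Among called genes whose mean log2 CPM was 2 or more and whose groups did not overlap, as the rule required, the largest rises were led by Mmp9. Mmp9 (ENSMUSG00000017737.2, chromosome 2, 164940780 to 164955850), the gelatinase, had 48.6, 81.4 and 536 CPM in BMP4-TGFB2 libraries, against 0.232, 1.74 and 12.9 CPM in BMP4 libraries. All BMP4-TGFB2 libraries were above all BMP4 libraries, as for 13.9% of tested genes, replicate 3 being highest in both groups, and the log2 fold change was 5.69 ± 0.54 (adjusted p = 9.57e-05). The hyaluronan synthase Has2 had 111, 244 and 413 CPM in BMP4-TGFB2 libraries, against 3.29, 19.1 and 87.4 CPM in BMP4 libraries (3.41 ± 0.47, adjusted p = 0.000752), and the stem cell receptor gene Lgr6 had 30.6, 31.7 and 44.9 CPM in BMP4-TGFB2 libraries and 5.04, 2.02 and 3.58 CPM in BMP4 libraries (3.38 ± 0.24, adjusted p = 2.72e-05). Whrn, a scaffold protein, rose by 3.30 ± 0.26 and the membrane protein gene Gpm6b by 3.55 ± 0.36. Stra6, the retinol transporter, rose by 3.48 ± 0.84 (adjusted p = 0.0148), a call that did not hold without BMP4-TGFB2 replicate 1, BMP4 replicate 1 or BMP4 replicate 2 (adjusted p 0.05 to 0.0759). Among the largest falls was that of a secreted protease. The kallikrein protease Klk14 had 1.41, 1.83 and 1.7 CPM in BMP4-TGFB2 libraries, against 111, 63.5 and 32.5 CPM in BMP4 libraries (-5.34 ± 0.47, adjusted p = 6.04e-05), Klk10 fell by 4.48 ± 0.38 (adjusted p = 5.14e-05), and the tight junction gene Cldn8 had 0.359, 0.211 and 0.229 CPM in BMP4-TGFB2 libraries, against 20.9, 12 and 3.01 CPM in BMP4 libraries (-5.26 ± 0.42, adjusted p = 4.1e-05). The carbonyl reductase Cbr2 (-4.09 ± 0.35, adjusted p = 5.22e-05), the RAS inhibitor Rasal1 (-3.64 ± 0.20, adjusted p = 1.5e-05), coagulation factor gene F5 (-3.79 ± 0.35, adjusted p = 8.47e-05), Lmo7 (-3.60 ± 0.25, adjusted p = 2.68e-05) and the sodium pump subunit Atp1b1 (-3.59 ± 0.28, adjusted p = 3.93e-05) each fell, and no library of either group overlapped the other group.

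Targets of SMAD2 and SMAD3 rose as a list. Of 38 measured, 23 were higher and 1 lower in BMP4-TGFB2, with a median log2 fold change of 0.62 against 0.0053 over all tested genes. The shares over all tested genes were 10.7% and 12%. Examples were the activin antagonist Fstl3 with 62.8, 52.6 and 87.4 CPM in BMP4-TGFB2 libraries and 18.5, 17.2 and 18.4 CPM in BMP4 libraries (1.88 ± 0.14, adjusted p = 3.84e-05), the transcriptional repressor Bhlhe40 (1.61 ± 0.13, adjusted p = 3.93e-05) and Spsb1, which restrains TGFb signalling (1.26 ± 0.09, adjusted p = 3.84e-05). Among 13 ligand genes 3 rose and 3 fell. Bmp2 had 11, 8.09 and 9.1 CPM in BMP4-TGFB2 libraries, against 1.36, 1.01 and 2.1 CPM in BMP4 libraries (2.68 ± 0.29, adjusted p = 0.000207), and the activin subunit gene Inhba had 333, 397 and 514 CPM in BMP4-TGFB2 libraries and 154, 139 and 219 CPM in BMP4 libraries (1.31 ± 0.27, adjusted p = 0.00642). Tgfb2 transcripts fell, with 10.3, 10.9 and 5.04 CPM in BMP4-TGFB2 libraries, against 26.5, 26 and 14 CPM in BMP4 libraries (-1.35 ± 0.18, adjusted p = 0.000673). Of 12 receptor genes 3 rose and 1 fell, but the number that rose was 0 without BMP4-TGFB2 replicate 2 or BMP4 replicate 2 or 3, and 1 without BMP4-TGFB2 replicate 3 or BMP4 replicate 1. The one that fell, Tgfbr2, encodes a receptor that TGFB2 acts through, with 97.8, 122 and 103 CPM in BMP4-TGFB2 libraries and 138, 173 and 159 CPM in BMP4 libraries (-0.54 ± 0.09, adjusted p = 0.00182). Acvr1, a BMP type I receptor gene, rose by 0.61 ± 0.19 (adjusted p = 0.0458) and did not pass without BMP4-TGFB2 replicate 2, BMP4-TGFB2 replicate 3, BMP4 replicate 1, BMP4 replicate 2 or BMP4 replicate 3 (adjusted p 0.0812 to 0.184). Of 16 SMADs and partners 9 rose, among them the ubiquitin ligases Smurf1 (0.82 ± 0.11, adjusted p = 0.00072) and Smurf2 (0.67 ± 0.11, adjusted p = 0.0023) and the co-repressors Ski (0.65 ± 0.10, adjusted p = 0.00115) and Tgif1 (0.79 ± 0.11, adjusted p = 0.000752). Secreted antagonists had 3 higher and 1 lower of 14, with 1 higher without BMP4-TGFB2 replicate 1, 2 or 3 or BMP4 replicate 2, and 0 lower whichever of the 6 libraries was left out.

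**Figure D4:**
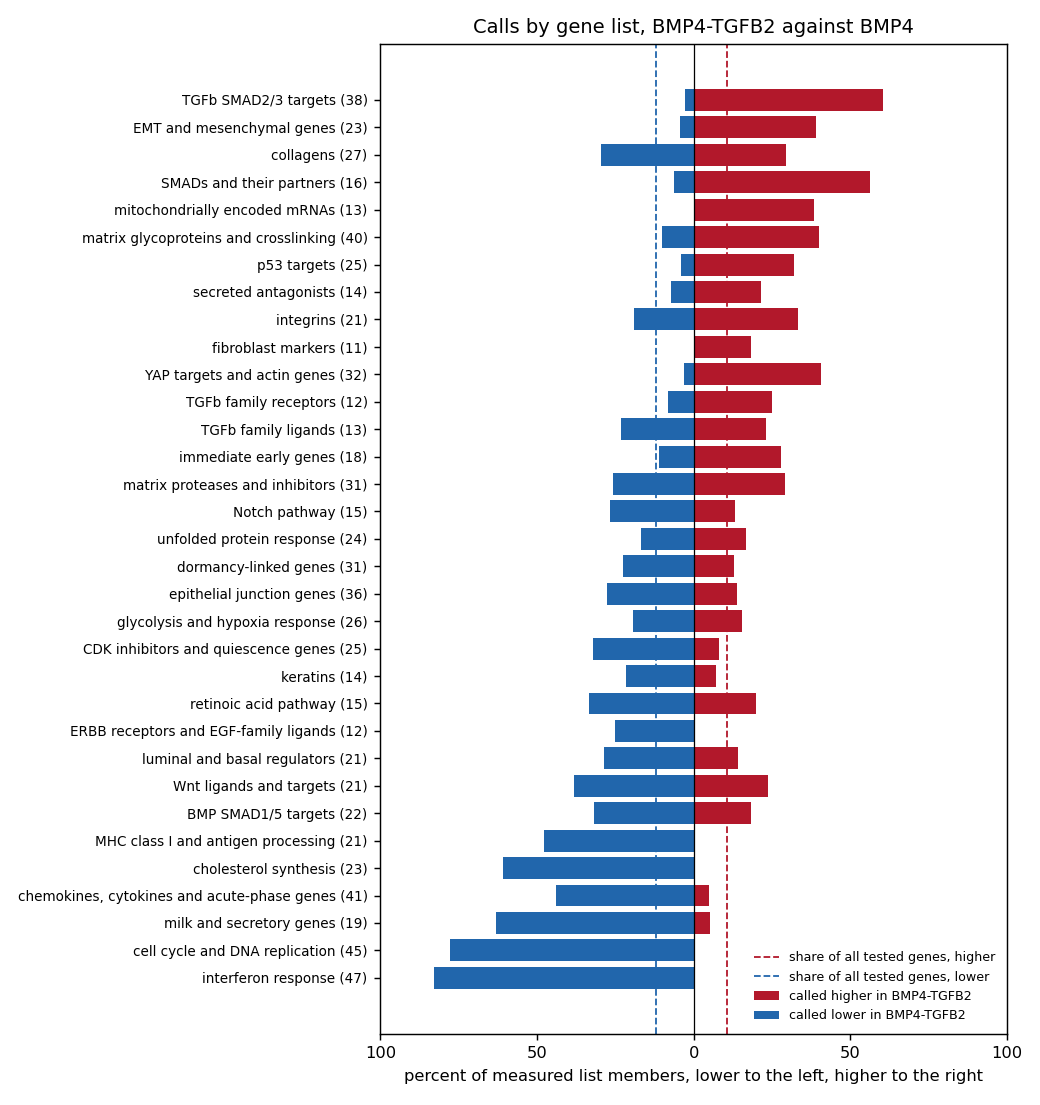
Percent of the measured members of each list with at least 10 members (number in brackets) that were called higher (right) or lower (left) in BMP4-TGFB2 than BMP4, in the order of the median log2 fold change; dashed lines are the 10.7% and 12% of all tested genes. SMAD2/3 targets are at the top with 23 of 38 higher, and the interferon list at the bottom with 39 of 47 lower.

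Matrix genes moved both ways. Collagens had 8 higher and 8 lower of 27. For this and the other matrix lists, the shares of all tested genes were 10.7% higher and 12% lower. Col7a1, the anchoring fibril collagen, had 162, 243 and 267 CPM in BMP4-TGFB2 libraries, against 11.4, 14.3 and 55.5 CPM in BMP4 libraries (3.30 ± 0.34, adjusted p = 0.000164), and the basement membrane collagen Col15a1 rose by 1.96 ± 0.27 (adjusted p = 0.000845). Col9a2 (-3.04 ± 0.22, adjusted p = 3.19e-05) and Col16a1 (-1.41 ± 0.21, adjusted p = 0.00108) fell with Col6a1 and Col6a2. Matrix glycoproteins and crosslinking enzymes had 16 higher and 4 lower of 40, among them the procollagen modifiers P4ha1 (1.11 ± 0.13, adjusted p = 0.000391) and Plod1 (1.04 ± 0.09, adjusted p = 7.6e-05). Bmp1, which despite its name encodes a procollagen protease, rose by 1.46 ± 0.10 (adjusted p = 2.68e-05). Spp1, osteopontin, fell by 1.33 ± 0.15 (adjusted p = 0.000301). Fn1, fibronectin, was high in every library, with 1678, 3429 and 4443 CPM in BMP4-TGFB2 libraries and 1171, 1431 and 2329.8 CPM in BMP4 libraries (0.95 ± 0.35, adjusted p = 0.0793). Each BMP4-TGFB2 library was above the BMP4 library of its number, but the groups overlapped and the difference missed the threshold. Integrins had 7 higher and 4 lower of 21. The laminin receptor subunit Itga6 fell by 1.60 ± 0.19 (adjusted p = 0.000324) while its partner Itgb4 rose by 0.65 ± 0.10 (adjusted p = 0.00122). Proteases and their inhibitors had 9 higher and 8 lower of 31.

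EMT and mesenchymal genes had 9 higher and 1 lower of 23, with a median of 0.61, beside 10.7% and 12% of all tested genes. The higher count was 5 without BMP4-TGFB2 replicate 3 or BMP4 replicate 1. Vim, an intermediate filament of mesenchymal cells, had 28.2, 67.3 and 334 CPM in BMP4-TGFB2 libraries and 11.3, 33.3 and 60.2 CPM in BMP4 libraries (1.67 ± 0.34, adjusted p = 0.00638), with replicate 3 highest in both groups and groups that overlapped. The transcription factor Snai1 rose by 0.57 ± 0.10 (adjusted p = 0.00215) and the adhesion molecule Ncam1 by 1.97 ± 0.29 (adjusted p = 0.00112). The member that fell was S100a4 (-1.37 ± 0.17, adjusted p = 0.00043). Without the replicate block the EMT list had 2 higher and 0 lower, and Vim, Snai1 and S100a4 did not pass. Junction genes had 5 higher and 10 lower of 36 (3 higher without BMP4-TGFB2 replicate 1 or BMP4 replicate 3). E-cadherin, Cdh1, had 419.7, 449 and 407 CPM in BMP4-TGFB2 libraries and 533, 593 and 586 CPM in BMP4 libraries (-0.42 ± 0.08, adjusted p = 0.00332), a fall that separated the groups but was small. Claudins went both ways: Cldn1 had 21.1, 12.7 and 10.2 CPM in BMP4-TGFB2 libraries, against 128, 136 and 62.8 CPM in BMP4 libraries (-2.89 ± 0.21, adjusted p = 3.74e-05), while Cldn4 rose by 1.82 ± 0.11 (adjusted p = 1.77e-05). Targets of YAP and actin genes had 13 higher and 1 lower of 32 (8 higher without BMP4 replicate 1 or 3), among them the adaptor Fhl2 (2.12 ± 0.19, adjusted p = 7.91e-05) and Pdlim7 (1.77 ± 0.12, adjusted p = 2.48e-05). Keratins had 1 higher, Krt80 (mean 97.3 CPM in BMP4-TGFB2 and 49.1 CPM in BMP4 libraries; adjusted p = 0.000726), and 3 lower of 14, namely Krt15, Krt19 and Krt23, where Krt19 did not pass without BMP4-TGFB2 replicate 2 (adjusted p 0.0503). Fibroblast markers, whose sums are given above, had 2 called higher, Pdgfra (2.12 ± 0.31, adjusted p = 0.00107) and Col1a1 (0.78 ± 0.20, adjusted p = 0.0175), of which Col1a1 did not pass without BMP4-TGFB2 replicate 1, BMP4-TGFB2 replicate 3, BMP4 replicate 2 or BMP4 replicate 3 (adjusted p 0.0536 to 0.087). Thy1 stayed under 1 CPM in all 6 libraries. Their part in the matrix and EMT lists was not tested.

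Milk and secretory genes fell, 12 of 19 with 1 higher, and a median of -1.13. Of all tested genes 12% were lower and 10.7% higher. Ltf (ENSMUSG00000032496.7, chromosome 9, 111019271 to 111042767), lactotransferrin, had 107, 68.2 and 121 CPM in BMP4-TGFB2 libraries, against 2286, 2170.3 and 1177 CPM in BMP4 libraries (-4.22 ± 0.33, adjusted p = 3.95e-05). NT libraries averaged 10249 ± 3152 CPM (SD, n = 3), and BMP4 libraries were already lower than these (-2.45 ± 0.31, adjusted p = 0.000839). The whey protein gene Wfdc18 fell by 3.38 ± 0.35 (adjusted p = 0.000165) and the prolactin receptor gene Prlr fell by 2.81 ± 0.21 (adjusted p = 3.93e-05). Elf5, the transcription factor of milk-producing alveolar cells, had 7.06, 10.3 and 5.27 CPM in BMP4-TGFB2 libraries, against 77.3, 85 and 51.1 CPM in BMP4 libraries and a log2 fold change of -3.26 ± 0.16 (adjusted p = 1.19e-05). Another epithelial factor, Ehf, had 195, 238 and 150.5 CPM in BMP4-TGFB2 libraries and 417, 483 and 371 CPM in BMP4 libraries (-1.13 ± 0.12, adjusted p = 0.000164), and Cebpa fell by 1.74 ± 0.21 (adjusted p = 0.000356). Of the 21 regulators of luminal and basal identity 3 were higher and 6 lower.

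The Elf5 promoter is shown because it holds 3 matches of CACCTG, the pattern bound by SNAI and ZEB repressors (RefSeq, GRCm38.p6, chr2:103411848-103412147, plus strand, 5′ to 3′, matches on either strand in capitals).
Elf5: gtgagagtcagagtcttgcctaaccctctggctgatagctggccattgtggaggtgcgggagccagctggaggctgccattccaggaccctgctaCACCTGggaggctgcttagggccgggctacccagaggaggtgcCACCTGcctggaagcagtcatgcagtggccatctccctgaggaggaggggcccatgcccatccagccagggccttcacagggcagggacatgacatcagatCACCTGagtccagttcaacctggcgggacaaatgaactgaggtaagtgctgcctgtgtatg
CACCTG was in 7 of 15 matched promoters of the milk list (46.7%), 10 of 19 of the junction list (52.6%) and 18% of all matched promoters. For the junction list under 80% had a promoter, and for the milk list 15 of 19, so the shares are void as a check of these lists too.

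Interferon-response genes fell as a list. Of 47 measured members 39 were lower and 0 higher, with a median of -1.54, beside 12% and 10.7% of all tested genes. On a scale of mean log2 CPM relative to NT the list stood at -3.06, -2.74 and -2.80 in BMP4-TGFB2 and -0.79, -1.49 and -1.35 in BMP4 libraries. Groups did not overlap, and BMP4 alone was already under NT. Oas3, an antiviral enzyme that makes oligoadenylates, had 5.99, 8.02 and 9.62 CPM in BMP4-TGFB2 libraries, against 77.6, 54.4 and 61.7 CPM in BMP4 libraries (-3.01 ± 0.29, adjusted p = 9.69e-05). Gbp3, a guanylate-binding protein, had 6.95, 5.87 and 6.05 CPM in BMP4-TGFB2 libraries, against 46.9, 29.5 and 29.3 CPM in BMP4 libraries (-2.45 ± 0.24, adjusted p = 0.000109), and Oas1a had 10.2, 10.8 and 11.3 CPM in BMP4-TGFB2 libraries and 65.6, 34.3 and 42.7 CPM in BMP4 libraries (-2.10 ± 0.23, adjusted p = 0.000241). Irf7 fell by 3.04 ± 0.34 (adjusted p = 0.000245), but it shares exons with Phrf1, at 217% of its level. Oas and Gbp genes lie in families of close copies. With every replicate 1, 2 or 3 library left out 37, 26 and 32 were lower, and without the block 31. Antigen presentation by MHC class I had 10 lower and 0 higher of 21 (6 lower without BMP4-TGFB2 replicate 1 or BMP4 replicate 1), among them the immunoproteasome subunit Psmb8 (-1.58 ± 0.31, adjusted p = 0.00528) and H2-T23 (-1.27 ± 0.22, adjusted p = 0.00274). Chemokines, cytokines and acute-phase genes had 18 lower and 2 higher of 41 (0 higher without BMP4-TGFB2 replicate 1 or 2 or BMP4 replicate 1 or 2), among them Ccl20 with 1.41, 1.13 and 1.7 CPM in BMP4-TGFB2 libraries, against 23.7, 10.1 and 9.1 CPM in BMP4 libraries (-3.23 ± 0.38, adjusted p = 0.000327), the neutrophil attractant Cxcl3 (-3.86 ± 0.34, adjusted p = 6.21e-05) and the endotoxin coreceptor Cd14 (-1.84 ± 0.12, adjusted p = 2.28e-05).

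Promoters of Gbp3 and Oas1a are shown since they hold GAAA repeated after any 2 bases, the interferon-stimulated response pattern, in overlapping matches near the start (RefSeq, GRCm38.p6; Gbp3 chr3:142559794-142560093, plus strand; Oas1a chr5:120907476-120907775, minus strand; 5′ to 3′, matches on either strand in capitals).
Gbp3: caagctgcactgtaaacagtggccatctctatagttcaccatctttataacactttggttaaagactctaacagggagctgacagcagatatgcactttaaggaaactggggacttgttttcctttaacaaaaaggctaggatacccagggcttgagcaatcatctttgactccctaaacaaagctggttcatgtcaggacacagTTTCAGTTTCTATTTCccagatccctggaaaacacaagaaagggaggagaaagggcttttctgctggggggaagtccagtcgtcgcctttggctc
Oas1a: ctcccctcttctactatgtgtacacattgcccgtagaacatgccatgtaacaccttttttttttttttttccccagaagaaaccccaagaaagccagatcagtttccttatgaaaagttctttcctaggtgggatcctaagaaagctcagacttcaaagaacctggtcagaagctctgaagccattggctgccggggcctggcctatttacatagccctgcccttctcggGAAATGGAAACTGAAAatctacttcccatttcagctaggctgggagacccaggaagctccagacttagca
This pattern was in 18 of the 33 matched interferon promoters (54.5%), in 6.67% of those of genes lower by at least 1 log2 unit and in 3.08% of all matched promoters. None of the 5 patterns contains another, and the interferon set also had fewer than 80% matched.

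Cell cycle genes were lower, unevenly over replicates. Of 45 measured members 35 were called lower and 0 higher, with a median of -1.33, beside 12% and 10.7% of all tested genes. Relative to NT the list stood at -2.86, -0.75 and -0.45 in BMP4-TGFB2 replicates 1, 2 and 3, and at -0.48, 0.21 and 0.15 in BMP4 replicates. BMP4-TGFB2 replicate 1 lies far below the rest, and replicate 3 lies just above BMP4 replicate 1. TGFB2 replicate 1 was low too, at -2.28. BMP4-TGFB2 replicate 1 also had the largest share of mitochondrial transcripts of the 6 libraries, 2.91% of counts against 2.05% and 1.77% in the other BMP4-TGFB2 and 1.40% to 1.76% in BMP4 libraries; its part in the result was not tested. Without the replicate block 0 of the 45 passed in either direction, with every replicate 1 library left out 40 were lower with a median of -0.77, and with every replicate 2 or replicate 3 library left out 6 and 21 were. With 1 library left out, 14 were lower without BMP4-TGFB2 replicate 1, 16 without BMP4-TGFB2 replicate 2, 10 without BMP4 replicate 1 and 22 without BMP4 replicate 2. Mki67, the proliferation marker, had 9.41, 89.7 and 143 CPM in BMP4-TGFB2 libraries and 109, 227 and 242 CPM in BMP4 libraries (-1.71 ± 0.53, adjusted p = 0.0437), and its call did not hold without BMP4-TGFB2 replicate 1, BMP4-TGFB2 replicate 2, BMP4 replicate 1, BMP4 replicate 2 or BMP4 replicate 3 (adjusted p 0.0553 to 0.153). Members whose calls held without any 1 of the 6 libraries included Tyms, thymidylate synthase, with 18.9, 33.4 and 40.5 CPM in BMP4-TGFB2 libraries and 41.5, 62.3 and 58.9 CPM in BMP4 libraries (-0.85 ± 0.12, adjusted p = 0.000752), and cyclin E1, Ccne1 (-1.31 ± 0.17, adjusted p = 0.00057).

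Cyclin-dependent kinase inhibitors and quiescence genes had 8 lower and 2 higher of 25, beside 12% and 10.7% of all tested genes. The lower count was 4 without BMP4-TGFB2 replicate 1 or BMP4 replicate 1, and the higher count 1 without BMP4-TGFB2 replicate 2 or BMP4 replicate 2 or 3. Cdkn1a, which encodes p21, had 758, 561 and 524 CPM in BMP4-TGFB2 libraries and 512, 341 and 298 CPM in BMP4 libraries (0.70 ± 0.12, adjusted p = 0.00244). Cdkn1b, p27, had 61.9, 55.9 and 50.6 CPM in BMP4-TGFB2 libraries and 85.3, 60.1 and 54.9 CPM in BMP4 libraries (-0.23 ± 0.11, adjusted p = 0.177), lower in BMP4-TGFB2 in each same-numbered pair though the groups overlapped. Cdkn2c fell by 1.74 ± 0.21 (adjusted p = 0.000391). Targets of p53 had 8 higher and 1 lower of 25, among them the DNA repair gene Xpc (0.98 ± 0.14, adjusted p = 0.000996) and Phlda3 (0.52 ± 0.09, adjusted p = 0.00244). Among p53 targets the higher count was 3 without BMP4-TGFB2 replicate 2, and 4 without BMP4-TGFB2 replicate 3 or BMP4 replicate 1 or 2, and 5 without BMP4 replicate 3, and the lower count 0 whichever of the 6 libraries was left out. Cholesterol synthesis genes had 14 lower and 0 higher of 23, and 0 in either direction without the replicate block. The demethylase Cyp51 had 38.6, 117 and 113 CPM in BMP4-TGFB2 libraries and 78.7, 204 and 174 CPM in BMP4 libraries (-0.82 ± 0.11, adjusted p = 0.000532), where each BMP4-TGFB2 library was below the BMP4 library of its number while the groups overlapped. Mitochondrially encoded transcripts had 5 higher and 0 lower of 13, with a median of 0.44, beside the library shares above. That count of 5 was 1 without BMP4-TGFB2 replicate 1, and 2 without BMP4-TGFB2 replicate 2 or 3 or BMP4 replicate 1 or 2, and 3 without BMP4 replicate 3.

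**Figure D5:**
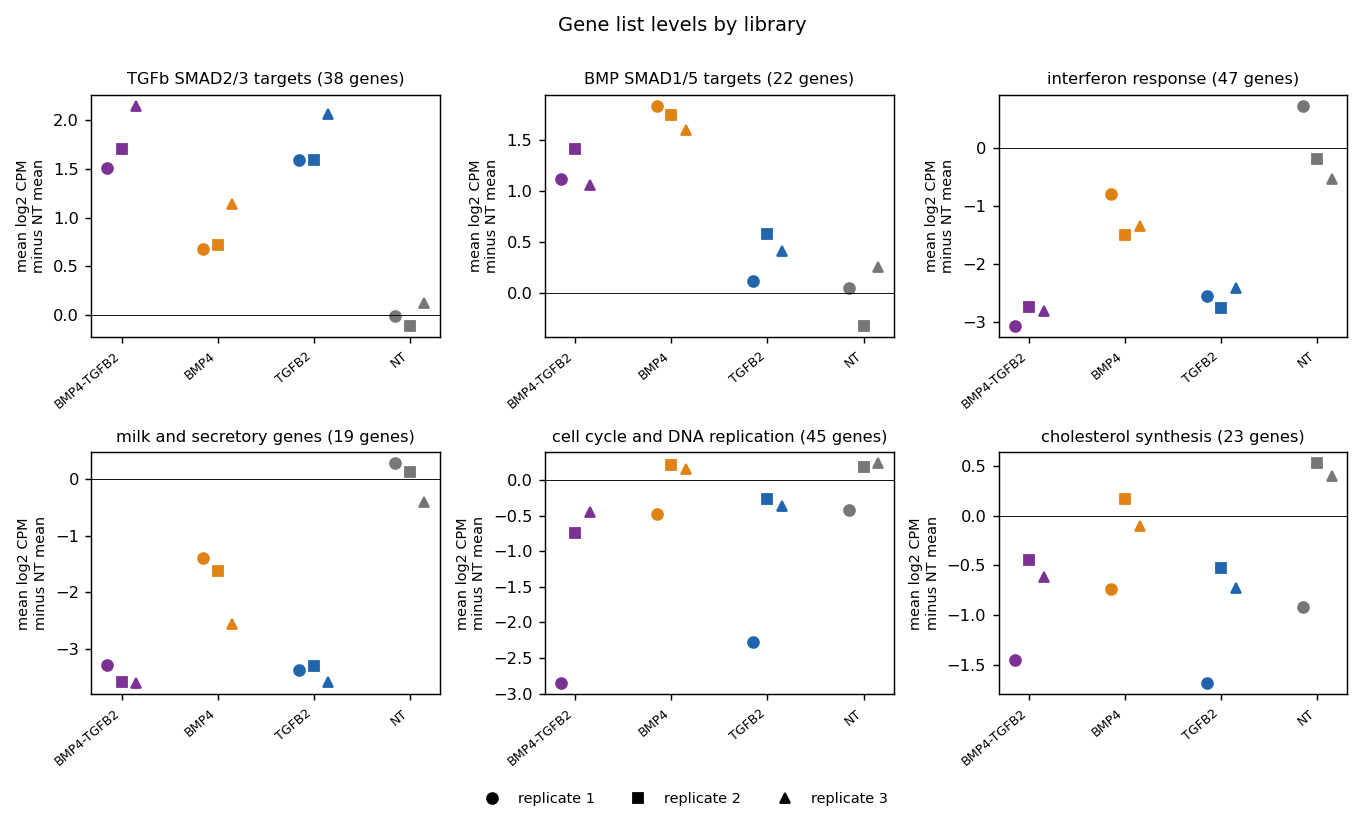
Mean log2 CPM of the measured genes of 6 lists in each library, minus the NT mean; points are libraries and shapes replicate numbers. BMP4-TGFB2 lies apart from BMP4 for the SMAD2/3 target, BMP target, interferon and milk lists, and replicate 1 lies lowest in every group for the cell cycle and cholesterol lists.

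Dormancy-linked genes had 4 higher and 7 lower of 31. The shares of all tested genes, for this and the lists below, were 10.7% higher and 12% lower. Nr2f1, a nuclear receptor tied to dormancy of tumour cells, had 2.18, 3.87 and 4.35 CPM in BMP4-TGFB2 libraries and 2.14, 2.09 and 2.76 CPM in BMP4 libraries (0.56 ± 0.29, adjusted p = 0.199) and shares exons with A830082K12Rik, at 18.8% of its level. Sox9 had 266, 251 and 252 CPM in BMP4-TGFB2 libraries and 408, 291 and 256 CPM in BMP4 libraries (-0.28 ± 0.14, adjusted p = 0.182). Groups overlapped for both genes and neither passed, although Nr2f1 was higher and Sox9 lower in BMP4-TGFB2 in each same-numbered pair. Bhlhe41 rose, with 89.5, 102 and 98.9 CPM in BMP4-TGFB2 libraries, against 48, 28.4 and 33.3 CPM in BMP4 libraries (1.44 ± 0.23, adjusted p = 0.00168). The TAM receptor Mertk (-2.56 ± 0.20, adjusted p = 3.93e-05) and its ligand Gas6 (-1.97 ± 0.30, adjusted p = 0.00143) fell. Retinoic acid genes had 3 higher and 5 lower of 15, with 0 higher without BMP4-TGFB2 replicate 1 or BMP4 replicate 2, and 1 without BMP4 replicate 1 or 3, and 2 lower without BMP4-TGFB2 replicate 1, 2 or 3 or BMP4 replicate 1 or 2, and 3 without BMP4 replicate 3. In the Notch pathway 2 of 15 rose, Jag1 and the receptor Notch4 (2.27 ± 0.25, adjusted p = 0.000245), and 4 fell. ERBB receptors and their ligands had 3 lower and 0 higher of 12. The ligand gene Nrg2 had 0.386, 0.387 and 0.556 CPM in BMP4-TGFB2 libraries, against 7.08, 11.9 and 5.77 CPM in BMP4 libraries (-4.15 ± 0.53, adjusted p = 0.000489). Glycolysis and hypoxia genes had 4 higher and 5 lower of 26 (3 lower without BMP4-TGFB2 replicate 2 or BMP4 replicate 1 or 2), with Vegfa (1.56 ± 0.26, adjusted p = 0.00224) and Hk2 (0.79 ± 0.11, adjusted p = 0.00089) higher and Egln3 (-1.48 ± 0.18, adjusted p = 0.000357) lower. Unfolded protein response genes had 4 higher and 4 lower of 24, with 2 higher without BMP4-TGFB2 replicate 1 or BMP4 replicate 1, and 2 lower without BMP4-TGFB2 replicate 1, 2 or 3 or BMP4 replicate 1 or 3. Without the replicate block 0 of them passed in either direction. Immediate early genes had 5 higher and 2 lower of 18, among them Junb with 763, 603 and 911 CPM in BMP4-TGFB2 libraries and 547, 341 and 446 CPM in BMP4 libraries (0.78 ± 0.12, adjusted p = 0.00133). The higher count there was 2 without BMP4-TGFB2 replicate 2 or BMP4 replicate 3, and 3 without BMP4-TGFB2 replicate 3 or BMP4 replicate 2, and the lower count 1 without BMP4-TGFB2 replicate 1 or 3 or BMP4 replicate 1 or 3.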

How the data were processed

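Gene expression was measured by RNA-seq in 12 libraries of 4 groups, 3 each, of which the 3 BMP4-TGFB2 and 3 BMP4 libraries are compared. Per the labels' protocols, RNA was selected with oligo(dT) and sequenced as paired reads, and the sample sheet gives 1 sequencing batch and unstranded libraries. The authors deposited estimated counts per gene and TPM (scaled for transcript length and library total). The submitters' processing notes name bcl2fastq 2.17, STAR 2.7.5b, Salmon 1.2.1 and GRCm38.p6; their roles and settings: not given in the sources used here.

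Estimated counts were rounded to whole numbers (as deposited, 82.9% of values with zeros included, and 53.8% of those above 0, were whole within 1e-09). Genes with low counts were removed with filterByExpr (minimum count 10), which left 15319 of 54347 genes and 99.9% of counts. All 12 libraries, of 28543128 to 42167771 counts, were fitted together with edgeR 4.0.16 (R 4.3.3; quasi-likelihood test, TMM scaling) with group and replicate number as terms, and p-values were adjusted over all tested genes by Benjamini-Hochberg at a threshold of 0.05. Fold changes are given as log2 ± standard error, and CPM is scaled to the library total and not for length, so it is not compared between genes. The fit was tested on simulated counts with known changes. Same-numbered BMP4-TGFB2 and BMP4 libraries deviated together from their group means (correlations 0.348, 0.146 and 0.331 across genes), so the numbers were taken to pair the samples. The same check was not made for TGFB2 and NT libraries. Libraries of a group differed by more than counting noise in every pair.

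Genes are named by rule: the largest changes among those that passed, the leading genes of each class, up to 4 members a list with the smallest p, a fixed set of pathway genes and the largest interaction terms; other genes named are list members of a class, or were chosen after their values were seen, as stated there. Classes, the 36 lists and these rules were chosen with earlier results of these data known. A gene that shares exons with a gene above 10% of its level is said to, since reads carry no strand. Ratios of genes with at most 3 counts in a group carry exact Clopper-Pearson 95% intervals, for counting error only. Promoters are RefSeq's, 300 bases, for 11043 of the tested genes. Alternatives were fits without the block, on 6 libraries, with DESeq2 1.42.0, limma 3.58.1 on counts or log2(TPM + 1), other filters and scaling, and with libraries left out.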

Additional observations from a re-analysis of the deposited data

Results flagged for a closer look

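For 10 genes named here, the effect of TGFB2 differed between cells with and without BMP4 by the interaction test of the edgeR fit, given as the log2 fold change of BMP4-TGFB2 over BMP4 minus that of TGFB2 over NT. Positive terms, where TGFB2 lowered the gene by less in BMP4-treated cells, were those of the casein gene Csn1s1 (4.93 ± 0.72, adjusted p = 0.012), the immunoglobulin transporter gene Pigr (4.79 ± 0.83, adjusted p = 0.0241), the chemokine gene Ccl28 (3.24 ± 0.48, adjusted p = 0.012), Gas7 (2.83 ± 0.37, adjusted p = 0.00805) and Ltf (2.56 ± 0.42, adjusted p = 0.0193). Each was lower in BMP4 than in NT libraries, for example 15.9 CPM against 425 CPM for Csn1s1. Negative terms were those of Ccn5 (-4.65 ± 0.72, adjusted p = 0.0141), the secreted Tafa5 (-4.03 ± 0.59, adjusted p = 0.012), the transporter Slc16a12 (-3.28 ± 0.42, adjusted p = 0.00805), Ctla2a (-3.05 ± 0.40, adjusted p = 0.00805), which shares exons with Gm49391, and Col6a1 (-3.03 ± 0.65, adjusted p = 0.0496). The genes were chosen for the size of these terms. The BMP4-TGFB2 over BMP4 calls behind some of them did not hold with 1 library left out. That was so for Tafa5 without BMP4-TGFB2 replicate 2 or 3 or BMP4 replicate 2 or 3. Slc16a12 did not pass without BMP4-TGFB2 replicate 1 or 2 or BMP4 replicate 1 or 2, nor did Pigr without BMP4-TGFB2 replicate 1. Ccn5 is given above. Over all tested genes, 280 interaction calls became 24 without the replicate block.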

How the results depend on the processing

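The replicate block rests on taking the numbers to pair the samples, which the labels do not state. Without the block, 649 genes were higher and 763 lower in BMP4-TGFB2 than BMP4. There were then 34 lowered BMP4-induced genes, 5 raised BMP4-lowered genes, 58 new genes and 24 interaction calls. With the 6 compared libraries alone and no block the counts were 416 higher and 516 lower. DESeq2 gave 113 lowered BMP4-induced genes and 808 interaction calls, and limma voom gave 128 lowered genes. With no filter on low counts there were 611 interaction calls. On log2(TPM + 1), limma gave 5 raised BMP4-lowered genes, 49 new genes and 77 interaction calls. With no minimum fold for BMP4 over NT, 149 BMP4-induced genes were lowered and 45 BMP4-lowered genes raised, and a ceiling of 0.5 CPM left 41 new genes. With 1 library left out, counts ranged from 980 to 1206 (higher), 1041 to 1470 (lower), 32 to 111 (lowered BMP4-induced), 5 to 14 (raised BMP4-lowered), 61 to 103 (new) and 61 to 447 (interaction). With all libraries of replicate 1, 2 or 3 left out they were 1289, 638 and 727 (higher), 1405, 874 and 1004 (lower), 35, 36 and 59 (lowered), 5, 3 and 7 (raised), 68, 57 and 78 (new) and 145, 1 and 33 (interaction). Leaving out each TGFB2 library, for the interaction, was added after seeing the data. The cause of these shifts was not tested, beyond the fewer samples or genes that some settings leave. Of the 172 tested genes named in the text, apart from exon-sharing neighbours, 153 passed for BMP4-TGFB2 over BMP4; 24 of these lost the call with 1 library left out, 33 without the block and 40 under either. Of the 215 genes that the naming rule takes, not all of which are printed, 182 passed and 80 of these lost the call under at least 1 setting; 0 reversed, the means in TPM and CPM differed in the same direction for all 182, and scaling by DESeq2 size factors changed no call. Without the block the higher counts of lists included 1 BMP target, 12 SMAD2/3 targets, 8 matrix glycoproteins, 2 EMT, 5 YAP, 2 p53 and 1 mitochondrial gene, and the lower counts 5 BMP targets, 3 Wnt, 3 cyclin-dependent kinase inhibitor, 8 milk and 7 MHC genes. Collagens then had 4 higher and 5 lower, proteases and their inhibitors 4 higher and 8 lower, and immediate early genes 1 higher and 1 lower. The unfolded protein response list had 0 in either direction. Leaving out 1 of 3 libraries assumes that the remaining libraries vary like those of other groups, and levels near 1 CPM are the least precise.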
